A study of Mus musculus with 9 samples.

Results

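The DNA replication and G1/S genes examined here are 39 mouse genes, from the sliding clamp Pcna to the uracil glycosylase Ung, that were taken by symbol from a list of replication and G1/S factors. Each symbol matched 1 row of the count table, so the set is 39 of 54532 genes, and all 39 were abundant enough to enter the test, as were 14471 genes in all. RNA was sequenced from HC11 cells, a clonal line of mouse mammary epithelium for which the labels give the strain C57BL/6, grown in medium with 10% serum. Ctrl was untreated, and EpPT1 and EpPT2 received light of 660 nm, with 3 libraries in each group. The sample labels of EpPT1 state 10 J/cm2 and those of EpPT2 state 20 J/cm2, but the protocol states a 10 mW laser at 0.5 and 1 J/cm2, so the groups carry no dose in what follows. The time of lysis after exposure was not given in the sources used here, and cells were exposed in plates. No label ties the libraries of a group to separate cultures, so every p-value reflects the spread among these libraries alone, which may be technical.

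Replication starts with licensing in G1, when the origin recognition complex, CDC6 and CDT1 load the MCM helicase onto DNA. At the G1/S transition cyclin E with its kinase relieves the block that RB places on E2F transcription factors, and E2F then drives many genes for origin licensing, DNA polymerases and nucleotide synthesis, including the gene of E2F1 itself. In S phase the helicase is activated by CDC45 and GINS, DNA polymerase alpha-primase lays down primers, and the clamp loader RFC places PCNA on the template. Ribonucleotide reductase and thymidylate synthase supply nucleotides, FEN1 and LIG1 finish the lagging strand, and CAF-1 and UHRF1 restore chromatin behind the fork. In cultured epithelium these transcripts are widely used as marks of cells that cycle.

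The promoter stretches that follow are shown because most of these genes are known E2F targets and because the members differed in how they varied among the libraries. RefSeq promoters (GRCm38.p6, 250 bases before to 50 after the gene start) were matched by symbol for 34 of the 39 members; Mcm4, Rfc2, Gins1, Gins2 and Ccne2 had no entry. An E2F motif, taken as TTTCCCGC, TTTGGCGC, TTTCGCGC or TTTGCCGC on either strand, lay in 11 of 34 members (32.4%), against 2.60% of 27025 genes in the table and 4.59% of the 10031 of them that were tested here. In the 250 bases before the start alone it lay in 8 of 34 (23.5%), against 3.83% of the tested genes. A CCAAT box (CCAAT, either strand) lay in 20 of 34 (58.8%), against 43.3% of the tested genes, and TTTGAA, searched as the cell cycle homology region, in 3 of 34 (8.82%), against 14.6%. Matches were allowed to overlap, a match is a description and not a binding site, and a missing match says only that these letters are not in the window. The first 6 stretches carry an E2F motif in capitals and come from genes that vary together among the libraries: Mcm5 (chr8:75109339-75109378, plus strand), Mcm6 (chr1:128359736-128359825, minus), Mcm7 (chr5:138172024-138172063, minus), Cdc6 (chr11:98907996-98908035, plus), Pola1 (chrX:93632271-93632310, minus) and Orc1 (chr4:108579409-108579448, plus).
Mcm5: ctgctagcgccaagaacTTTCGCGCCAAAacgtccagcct
Mcm6: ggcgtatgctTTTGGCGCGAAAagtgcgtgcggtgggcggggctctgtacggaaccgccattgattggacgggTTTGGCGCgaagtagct
Mcm7: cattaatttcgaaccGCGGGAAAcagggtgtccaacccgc
Cdc6: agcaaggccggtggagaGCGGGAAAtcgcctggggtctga
Pola1: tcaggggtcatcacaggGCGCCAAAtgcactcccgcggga
Orc1: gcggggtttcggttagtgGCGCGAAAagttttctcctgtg
All are written 5′ to 3′ on the gene's strand. In Mcm5 and in the first match of Mcm6, a pair of overlapping matches on opposite strands forms 1 longer run of capitals. CCAAT boxes are not marked in these first 6 stretches. The stretch of Mcm6 holds a CCAAT box, and Mcm5, Mcm7, Pola1 and Orc1 have it elsewhere in the promoter. The box is thus not particular to the genes that follow. The next 3 hold no E2F motif and have the CCAAT box in capitals. They come from members that varied in other ways: Orc6 (chr8:85299552-85299591, plus), Slbp (chr5:33652625-33652694, minus) and Mcm10 (chr2:5012802-5012901, minus).
Orc6: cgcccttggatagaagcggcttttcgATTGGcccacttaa
Slbp: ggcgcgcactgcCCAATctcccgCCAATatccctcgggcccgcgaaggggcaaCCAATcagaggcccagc
Mcm10: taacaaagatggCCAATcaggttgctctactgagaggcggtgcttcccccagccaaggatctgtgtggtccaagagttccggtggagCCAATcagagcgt

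Total counts ran from 14549787 to 17228929 per library. Counts on mitochondrial genes made up 6.06% to 7.48% of the total in Ctrl 3, EpPT1 3, EpPT2 2 and EpPT2 3, called the high-share libraries here, and 2.74% to 3.62% in the other 5, the low-share libraries. Log2 expression was taken relative to each gene's mean over all libraries and regressed on gene GC content. The slope was negative in the 3 Ctrl libraries and EpPT1 1 and positive in the other 5, a sign that is relative to the other libraries. The nearest neighbours of several libraries were in another group: the chi-square per gene of their counts was 5.66 between EpPT1 2 and EpPT2 1 and 7.87 between EpPT1 3 and EpPT2 2, but 77.0 between EpPT1 1 and EpPT1 2 and 52.1 between Ctrl 1 and Ctrl 2. The lowest value was 4.95, between EpPT2 2 and EpPT2 3, so no pair agreed within sampling noise. The luminal markers of the line, of which 4 of 5 were tested, summed to 1631 to 2576 CPM in all libraries (CPM, a gene's count relative to the library total as scaled by edgeR's TMM factors), although Cdh1, which encodes E-cadherin, stayed at or below 0.78 CPM. Markers of other cells were compared between the share classes. Those of blood and immune cells summed to 88.2 to 104 CPM in high-share and 9.31 to 45.9 in low-share libraries, almost all of it Cd68, with Ptprc at or below 0.76 CPM, Cd3e at or below 0.13 and Hbb-bs at or below 0.08. Basal markers, mostly Krt14, summed to 19.4 to 23.6 CPM in high-share and 4.65 to 9.81 in low-share libraries, without overlap. Fibroblast markers overlapped, at 1819 to 3294 against 739 to 2148 CPM. Nearly all of that was Dcn (733 to 3288 CPM), with Pdgfra at or below 8.19 CPM, Pdgfrb at or below 0.43, Lum at or below 0.18 and Thy1 at 0 throughout. Fat cell markers also overlapped, at 248 to 311 against 231 to 409 CPM. Nearly all of that was Lpl, with Fabp4 at or below 0.40 CPM, Adipoq at or below 0.21 and Plin1 at or below 0.07. The part of these differences in the results on replication genes was not tested.

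Expression of the module spanned a wide range. Per kilobase of exon, Pcna, the clamp that tethers DNA polymerases (ENSMUSG00000027342, chromosome 2, 132249162 to 132253314), was the most abundant member, at a mean of 171 CPM per kb over the 9 libraries. The helicase subunit Mcm3 and the reductase subunit Rrm2 followed at 70.7 and 69.2 CPM per kb, then Mcm7 at 61.8, Mcm6 at 54.8 and the origin recognition subunit Orc6 at 53.9. The 6 subunits of the MCM ring, which act together in 1 complex, differed per length from 21.2 for Mcm2 to 70.7 for Mcm3. At the lower end stood the catalytic polymerase subunit Pola1 at 4.14 CPM per kb, the uracil glycosylase Ung at 1.62 and the flap endonuclease Fen1 at 1.58. Length here is the authors' column, which equals the merged exons of all annotated transcripts for 38 of the 39 members, so a gene with long alternative exons gets a low value per length. Fen1 is uncertain besides, because 78.8% of its exonic bases are shared with the antisense gene Gm10143 (1.46 to 4.28 CPM) and whether reads were counted by strand was not given in the sources used here. Gins2, which shares 67.3% with Gse1, and Chaf1a, which shares 52.5% with Ubxn6, are uncertain for the same reason. Some members share less with an antisense gene of higher mean CPM. These are Orc6 (6.93%, Vps35 at 303 against 133 CPM) and Ccne2 (17.4%, Ints8 at 67.6 against 47.6). Rfc5 (10.7%, Wsb2 at 155 against 71.2), Rfc4 (12.7%, Eif4a2 at 383 against 22.7) and Cdc45 (5.96%, Ufd1 at 48.4 against 25.4) are the others. In all, 14 members share some exonic bases with an antisense gene, and Pcna and Tyms have named pseudogenes that could take or give reads.

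**Figure D1:**
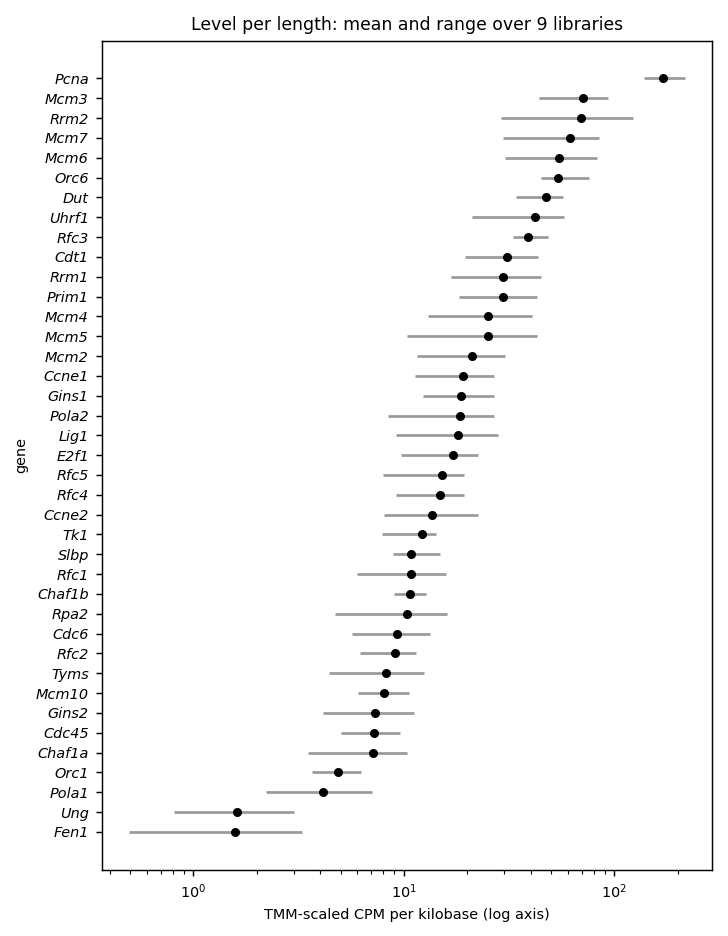
Level per length of the 39 genes, as TMM-scaled CPM per kilobase on a log axis. Points are means and lines the range over the 9 libraries. Pcna is highest, at 171 CPM per kb, and Fen1 and Ung are lowest, at 1.58 and 1.62.

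The largest variation of the module ran within the groups and followed the mitochondrial share. In 30 of the 39 members every high-share library lay below every low-share library, and in 0 members above. Over all tested genes, 18% were lower and 16.5% higher in that way. The comparison describes the libraries and carries no test, since the share is no group of the study. All libraries numbered 1 were low-share and all numbered 3 high-share, while those numbered 2 were mixed. The share and the replicate number can therefore not be fully told apart. Inside each group the direction was shared: the median log2 difference of the members between high-share and low-share libraries was −0.89 in Ctrl, −0.82 in EpPT1 and −0.82 in EpPT2, against −0.03, −0.01 and −0.05 over all tested genes. A total of 32 members was lower in the high-share libraries of all 3 groups, against 35.1% of all tested genes. In each group 1 side of this difference was a single library: Ctrl 3, EpPT1 3 and EpPT2 1. EpPT1 2 was also a near neighbour of EpPT2 1 (chi-square per gene 5.66), as was EpPT1 3 of EpPT2 2 (7.87). The differences within EpPT1 and EpPT2 are therefore not separate observations. Ctrl 2 and EpPT1 1, both low-share, were also nearer to each other (15.1) than to Ctrl 1 (52.1) and EpPT1 2 (77.0), respectively. The difference within Ctrl is thus not fully separate from that within EpPT1. The RNA came from whole cultures, in which fewer cells in S phase and less RNA per cell cannot be told apart. With CPM that were not TMM-scaled the count was 31 in place of 30, and it lay between 30 and 32 when each library was left out in turn. Apart from rescaling, leaving out a library can only keep or raise this count, so the range does not measure its stability.

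**Figure D2:**
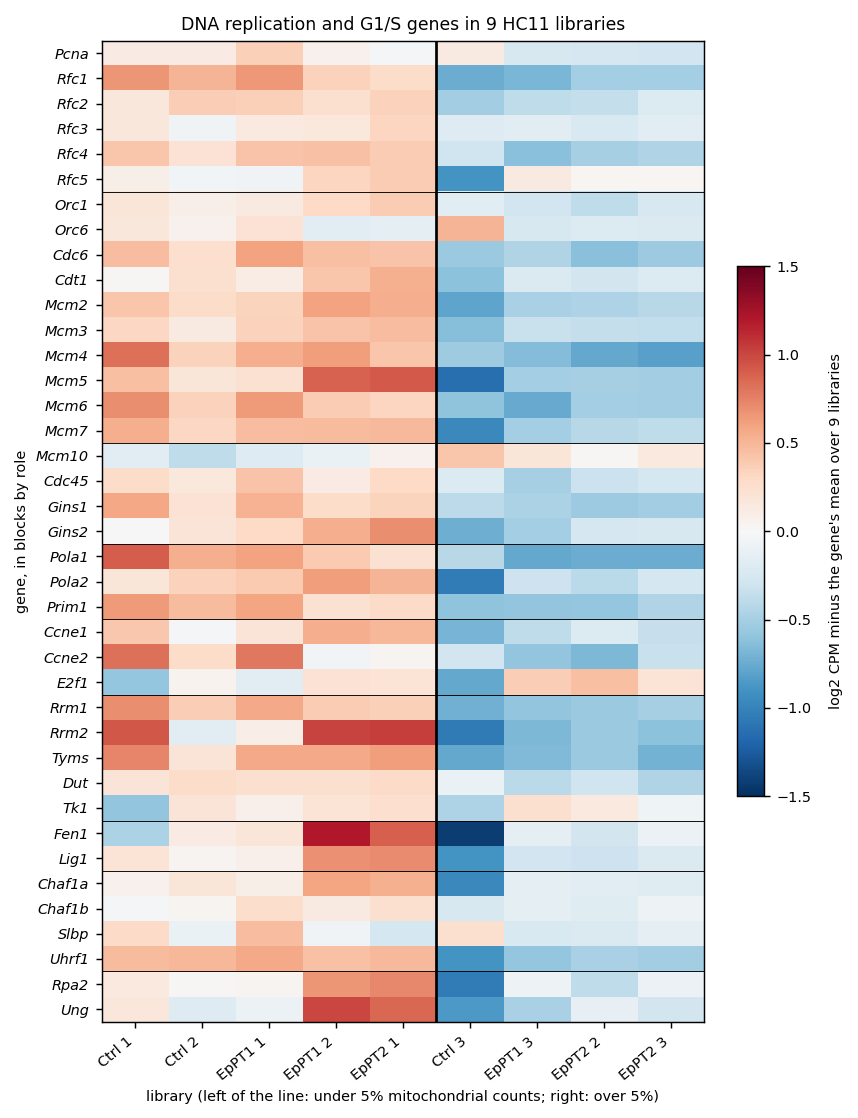
Log2 CPM of the 39 genes minus each gene's mean over the 9 libraries (colour), with genes in blocks by role. Low-share libraries stand left of the line and high-share libraries right of it, each class in sample order. In most rows the 5 columns left of the line are red and the 4 columns right of it blue; Mcm10, E2f1, Tk1, Orc6, Slbp, Pcna and Rfc5 are the 7 genes that were not lower in the high-share libraries of all 3 groups.

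Among the origin recognition and licensing genes, 9 of 10 were lower in all high-share libraries. Mcm3 had 318, 281 and 165 CPM in the Ctrl libraries, 325, 345 and 203 in those of EpPT1, and 352, 200.1 and 198 in those of EpPT2. Mcm2, another subunit of the helicase ring, had 185, 168 and 80.4 CPM in the Ctrl libraries, 175, 211 and 99.0 in those of EpPT1, and 203, 101 and 105 in those of EpPT2. Cdc6, which helps load that ring, had 63.2, 54.7 and 31.2 CPM in the Ctrl libraries, 69.7, 62.8 and 33.7 in those of EpPT1, and 61.7, 29.7 and 31.6 in those of EpPT2. In these 3 genes Ctrl 3 is far below Ctrl 1 and Ctrl 2, EpPT1 3 below the other EpPT1 libraries, and EpPT2 1 above EpPT2 2 and EpPT2 3. Mcm5, singled out after its values were seen, had the lowest Ctrl 3 value relative to its mean among the licensing genes, with 123, 102 and 41.3 CPM in the Ctrl libraries, 106, 167 and 63.4 in those of EpPT1, and 171, 64.1 and 62.8 in those of EpPT2. Its low-share mean was 2.31 times its high-share mean, next to 2.37 for Mcm4, 2.11 for Mcm6 and 2.01 for Mcm7.

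Helicase activation and priming showed the same split. Gins1, a subunit of the GINS complex that joins the MCM ring at the fork, had 40.7, 31.5 and 20.6 CPM in the Ctrl libraries, 39.1, 33.0 and 19.5 in those of EpPT1, and 34.2, 18.6 and 18.8 in those of EpPT2. The primase subunit Prim1 had 166, 149 and 70.4 CPM in the Ctrl libraries, 161, 126 and 70.8 in those of EpPT1, and 131, 71.7 and 78.4 in those of EpPT2. Pola1, the catalytic subunit of DNA polymerase alpha, had 62.5, 48.6 and 24.9 CPM in the Ctrl libraries, 50.6, 43.7 and 19.5 in those of EpPT1, and 39.2, 19.9 and 19.8 in those of EpPT2. All 3 polymerase alpha-primase members and 3 of the 4 activation members were lower without overlap. Of the clamp and clamp loader genes, 4 of 6 were, led by the large loader subunit Rfc1, whose low-share mean was 2.15 times its high-share mean.

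The enzymes that make deoxynucleotides included the member with the widest ratio. Rrm2, the S-phase subunit of ribonucleotide reductase, had 316, 148 and 79.8 CPM in the Ctrl libraries, 179, 336 and 104 in those of EpPT1, and 341, 114 and 109 in those of EpPT2, and its low-share mean was 2.60 times the high-share mean, more than for any other member. Thymidylate synthase Tyms stood at 2.34 and the large reductase subunit Rrm1 at 2.10. In Rrm2 the low-share libraries were themselves uneven: Ctrl 2 and EpPT1 1 were well below Ctrl 1, EpPT1 2 and EpPT2 1. In all, 4 of 5 nucleotide supply members were lower without overlap. The exception was Tk1, the thymidine kinase of the salvage pathway.

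Both cyclin E genes followed the split as well. Ccne1 had 65.1, 48.3 and 30.2 CPM in the Ctrl libraries, 56.0, 71.6 and 37.7 in those of EpPT1, and 69.1, 42.4 and 38.5 in those of EpPT2. Ccne2 had 79.0, 53.9 and 36.5 CPM in the Ctrl libraries, 77.2, 43.3 and 29.5 in those of EpPT1, and 45.9, 28.0 and 35.4 in those of EpPT2. The highest high-share value of each was below its lowest low-share value. DNA ligase Lig1, which seals Okazaki fragments, had 84.3, 74.7 and 39.1 CPM in the Ctrl libraries, 76.7, 117 and 59.6 in those of EpPT1, and 119, 58.9 and 62.5 in those of EpPT2. Uhrf1, which recruits the maintenance methyltransferase to newly copied DNA, had 230.3, 235 and 89.6 CPM in the Ctrl libraries, 247, 226 and 112 in those of EpPT1, and 234, 119 and 116 in those of EpPT2, lower in every high-share library, with Ctrl 3 the lowest. Rpa2, of the complex that coats exposed DNA strands at the fork, had 32.3, 29.5 and 14.0 CPM in the Ctrl libraries, 30.0, 46.1 and 27.7 in those of EpPT1, and 48.0, 22.3 and 27.5 in those of EpPT2. In all, 3 of the 4 chromatin and histone supply members and 1 of 2 each of the Okazaki fragment and the strand-binding and uracil repair members were lower without overlap.

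Of the 39 members, 9 overlapped between the share classes, and 7 of them were not lower in all 3 groups. Pcna had 441, 441 and 446 CPM in the Ctrl libraries, 518, 425 and 343 in those of EpPT1, and 399, 341 and 333 in those of EpPT2, with Ctrl 3 level with Ctrl 1 and Ctrl 2 while EpPT1 3 was the lowest of its group. Orc6, the small subunit of the origin recognition complex (ENSMUSG00000031697, chromosome 8, 85299632 to 85308278), had 147, 137 and 187 CPM in the Ctrl libraries, 153, 118 and 111 in those of EpPT1, and 119, 114 and 113 in those of EpPT2. Its highest value was in Ctrl 3, and the other 3 high-share libraries were its lowest. Slbp, which binds histone mRNA stem-loops, had 79.6, 60.5 and 76.8 CPM in the Ctrl libraries, 90.0, 62.8 and 55.3 in those of EpPT1, and 54.0, 56.1 and 59.2 in those of EpPT2. Ctrl 3 is again among its higher values, and its EpPT2 libraries are all below those of Ctrl. E2f1 (ENSMUSG00000027490, chromosome 2, 154559407 to 154569892) had 34.8, 54.3 and 30.7 CPM in the Ctrl libraries, 46.6, 60.6 and 67.7 in those of EpPT1, and 60.4, 71.1 and 60.4 in those of EpPT2, so that Ctrl 3 was again apart from the other high-share libraries, here as the lowest. Tk1 had 41.1, 71.0 and 45.0 CPM in the Ctrl libraries, 65.7, 71.9 and 73.7 in those of EpPT1, and 74.0, 68.6 and 59.6 in those of EpPT2. Ctrl 1 and Ctrl 3 were its lowest libraries, so it did not sort by share. Mcm10, which acts in helicase activation and was singled out after its values were seen, had 54.8, 46.8 and 81.8 CPM in the Ctrl libraries, 53.2, 56.7 and 69.4 in those of EpPT1, and 64.0, 61.9 and 67.4 in those of EpPT2. It was the only member that was higher in the high-share libraries of all 3 groups (log2 differences 0.69, 0.34 and 0.013 within Ctrl, EpPT1 and EpPT2). The seventh, the loader subunit Rfc5, differed by −0.93, 0.0041 and −0.36. The other two, Fen1 and Ung, were lower in the high-share libraries of every group but overlapped across groups. Fen1 had 2.42, 3.71 and 1.20 CPM in the Ctrl libraries, 3.87, 7.93 and 3.05 in those of EpPT1, and 6.40, 2.77 and 3.18 in those of EpPT2, the lowest CPM of the set.

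**Figure D3:**
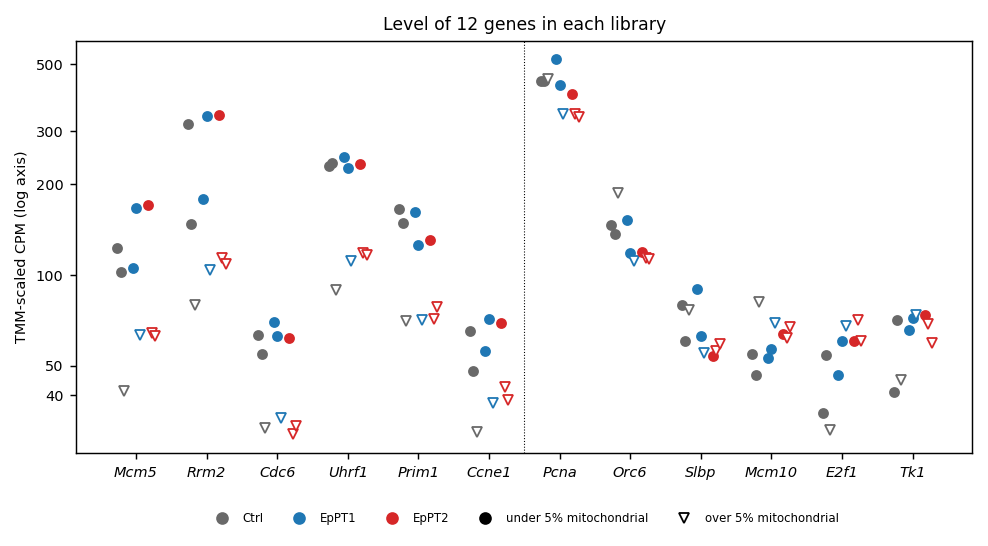
TMM-scaled CPM of 12 genes in each of the 9 libraries, on a log axis, with groups by colour and high-share libraries as open triangles. Left of the dotted line the triangles lie below all filled circles of the same gene; right of it the symbols mix, and for Orc6 and Mcm10 the highest point is the Ctrl 3 triangle.

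Motif content was set beside this division. Of the 25 members with a RefSeq promoter that were lower in every high-share library, 11 held an E2F motif, among them Mcm5, Mcm6, Mcm7, Cdc6, Pola1 and Orc1, printed in the opening paragraphs. Of the 9 members that overlapped between the share classes, all of them with a promoter entry, 0 did. E2f1 is among these 9, although its gene is known as a target of E2F, so the window or the letters searched do not cover every known case. The division used measured values, and these counts carry no test.

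A further division lay within the low-share libraries. EpPT1 2 and EpPT2 1, the low-share libraries with a positive GC slope, were above Ctrl 1, Ctrl 2 and EpPT1 1 in 18 members and below them in 6, against 26.4% of all tested genes above and 25.7% below. The 18 members have a median GC content of 51.9% and the 6 lower members, Rfc1, Pola1, Prim1, Ccne2, Pcna and Orc6, one of 44.7%. The libraries were divided by the sign of their GC slope, so a GC difference of this direction follows from the division. Ung, for example, had 9.18, 7.12 and 4.43 CPM in the Ctrl libraries, 7.62, 16.4 and 5.75 in those of EpPT1, and 14.9, 7.46 and 6.71 in those of EpPT2, highest in those 2 libraries. Of the 30 tested G2/M and mitosis genes, 4 were above and 19 below.

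The comparison of EpPT1 with Ctrl asks whether light at the smaller labelled fluence altered these transcripts. No member passed the test, with edgeR adjusted p of 0.991 or above, and 0% of all genes did. DESeq2 and limma-voom called 0 members as well. The median log2 difference of the 39 was 0.08, against −0.02 over all genes, with 25 members higher, 14 lower and a range of −0.30 to 1.01. Leaving out each library in turn moved that median between −0.07 and 0.34. At an unadjusted p under 0.05 stood 0 members in edgeR (3 without Ctrl 2, 2 without EpPT1 1), against 3.01% of all genes on the higher and 0.919% on the lower side, and 0 members had non-overlapping groups, against 2.73% higher and 2.53% lower. The members with the smallest p on the higher side were E2f1, at 0.55 (SE 0.26) with an edgeR p of 0.0624, Fen1 at 1.01 (SE 0.55), Tk1 at 0.43 (SE 0.24) and Rfc5 at 0.37 (SE 0.27). On the lower side they were Orc6 at −0.30 (SE 0.21), Pola1 at −0.26 (SE 0.44), Ccne2 at −0.17 (SE 0.39) and Dut, the dUTPase that keeps uracil out of DNA, at −0.07 (SE 0.26). Each of these 8 had an edgeR adjusted p of 0.991. Leaving out each library in turn moved Pola1 between −0.55 and 0.06 and Ccne2 between −0.64 and 0.15, both above 0 without Ctrl 1 or EpPT1 3, and Dut between −0.19 and 0.11, above 0 without Ctrl 2 or EpPT1 3. Fen1 moved between 0.49 and 1.44, Tk1 between 0.28 and 0.71, Rfc5 between 0.12 and 0.55, E2f1 between 0.39 and 0.83 and Orc6 between −0.46 and −0.16. The median standard error of a member was 0.38, so a difference of that order was not detectable with these libraries.

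The comparison of EpPT2, the group of higher labelled fluence, with Ctrl gave 0 of 39 members and 0% of all genes past the test in edgeR, and 0 members in DESeq2 and limma-voom. The members had a median of −0.09, against −0.03 over all genes, with 17 higher and 22 lower and a range of −0.78 to 0.75. Leaving out each library in turn moved the median between −0.39 and 0.10. E2f1 came nearest. It had 39.9 ± 12.6 CPM for Ctrl, 58.3 ± 10.7 for EpPT1 and 64.0 ± 6.21 for EpPT2 (group mean ± SD, n = 3), a log2 difference of 0.68 (SE 0.26) with an edgeR p of 0.0261 and an adjusted p of 0.376, and all EpPT2 libraries were above all Ctrl libraries. It was the only member at an unadjusted p under 0.05, where 6.88% of all genes were higher and 5.31% lower, and 0 members stood there without Ctrl 1 or EpPT2 2, 2 without EpPT1 1 and 3 without Ctrl 2 or EpPT2 1. Non-overlapping groups were found for E2f1 on the higher side, against 12.3% of all genes, and for Orc6, Slbp and Pcna on the lower side, against 10.9%, so neither count stands above the background. Orc6 had 157 ± 26.6 CPM for Ctrl, 127 ± 22.2 for EpPT1 and 115 ± 3.59 for EpPT2 (group mean ± SD, n = 3), a difference of −0.45 (SE 0.21) and an edgeR adjusted p of 0.414. Slbp had 72.3 ± 10.3 CPM for Ctrl, 69.4 ± 18.3 for EpPT1 and 56.5 ± 2.61 for EpPT2 (group mean ± SD, n = 3), a difference of −0.36 (SE 0.23) and an edgeR adjusted p of 0.515. Pcna had 443 ± 2.52 CPM for Ctrl, 429 ± 88.0 for EpPT1 and 358 ± 36.0 for EpPT2 (group mean ± SD, n = 3), a difference of −0.31 (SE 0.21) and an edgeR adjusted p of 0.528. Its Ctrl libraries were nearly equal while those of EpPT1 spread over both other groups.

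By the size of p, the next members higher in EpPT2 than in Ctrl were Tk1 at 0.36 (SE 0.24), Rfc5 at 0.38 (SE 0.27) and Fen1 at 0.75 (SE 0.55), with edgeR adjusted p of 0.520, 0.553 and 0.561. Their sizes rested on few libraries: Tk1 was 0.22 without Ctrl 1 and 0.65 without Ctrl 2, Rfc5 was 0.13 without Ctrl 3, 0.24 without EpPT2 1 and 0.56 without Ctrl 1, and Fen1 was 0.27 without EpPT2 1, 0.43 without Ctrl 3 and 1.17 without Ctrl 2. The lower ones beside Orc6 were Pola1 at −0.78 (SE 0.45), Ccne2 at −0.63 (SE 0.39) and Slbp, with edgeR adjusted p of 0.470, 0.501 and 0.515. Pola1 was −0.48 without Ctrl 1 and −1.20 without EpPT2 1, and Ccne2 −0.31 without Ctrl 1. Vps35 and Ints8, the antisense partners of Orc6 and Ccne2, also had lower means in EpPT2 (227 and 54.9 CPM) than in Ctrl (389 and 80.3). Gm10459, the partner of Slbp, stayed at or below 0.07 CPM. Whether reads of these partners entered the counts of the members was not tested. By role, 8 of the 10 licensing members and 4 of the 6 clamp and clamp loader members were lower, beside 7540 of all 14471 tested genes. Several of the licensing differences were near 0, such as Mcm3 at −0.03, Orc1 at −0.08 and Mcm2 at −0.09. Both Okazaki fragment members, Fen1 and Lig1, were higher, as were both strand-binding and uracil repair members, and the other roles were mixed. EpPT1 and EpPT2 were both set against the same Ctrl libraries, so E2f1, Tk1, Rfc5 and Fen1 on the higher side and Orc6, Pola1 and Ccne2 on the lower side of both comparisons are not separate observations. In EpPT1 the direction of Pola1 and Ccne2 also turned with the GC trend removed.

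EpPT2 against EpPT1 asks whether the groups exposed to light differed. It gave 0 of 39 members and 0% of all genes past the test, with edgeR adjusted p rounding to 1.00, and 0 members in DESeq2 and limma-voom. Members were mostly lower in EpPT2, 36 of 39 beside 7483 of 14471 genes, with a median of −0.18 against −0.01 over all genes and a range of −0.55 to 0.13. Related genes leaned the same way. Lower were 33 of 38 other replication, 21 of 23 other G1/S control and 4 of 6 CDK inhibitor genes. So were 19 of 20 other nucleotide supply and 25 of 30 G2/M and mitosis genes. All share the same libraries and are not independent counts. EpPT2 holds 2 high-share libraries and EpPT1 holds 1, and in the fit with the mitochondrial share as a covariate 0 members passed as well. Within the share classes the EpPT2 libraries were not consistently lower. The median log2 CPM of the members, relative to each gene's mean, was −0.40 in EpPT1 3, −0.36 in EpPT2 2 and −0.28 in EpPT2 3. Among low-share libraries it was 0.33 in EpPT1 1, 0.39 in EpPT1 2 and 0.38 in EpPT2 1. The part of the share in this lean was not tested. The smallest p on the lower side belonged to Slbp at −0.30 (SE 0.23), Pcna at −0.26 (SE 0.21), Pola1 at −0.53 (SE 0.45) and Mcm4 at −0.55 (SE 0.46). The 3 higher members were E2f1 at 0.13 (SE 0.26), Mcm10 at 0.11 (SE 0.24) and Rfc5 at 0.011 (SE 0.27), of which Rfc5 was below 0 without EpPT1 1 or EpPT2 1 and E2f1 was below 0 with the GC trend removed. Leaving out each library in turn moved Slbp between −0.44 and −0.06, Pcna between −0.40 and −0.09, Pola1 between −0.94 and −0.26 and Mcm4 between −1.07 and −0.33. Of the members 0 were at an unadjusted p under 0.05 in edgeR (1 without EpPT2 1), against 0.0691% of all genes higher and 0.145% lower, and 0 had non-overlapping groups, against 1.26% and 1.2%.

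**Figure D4:**
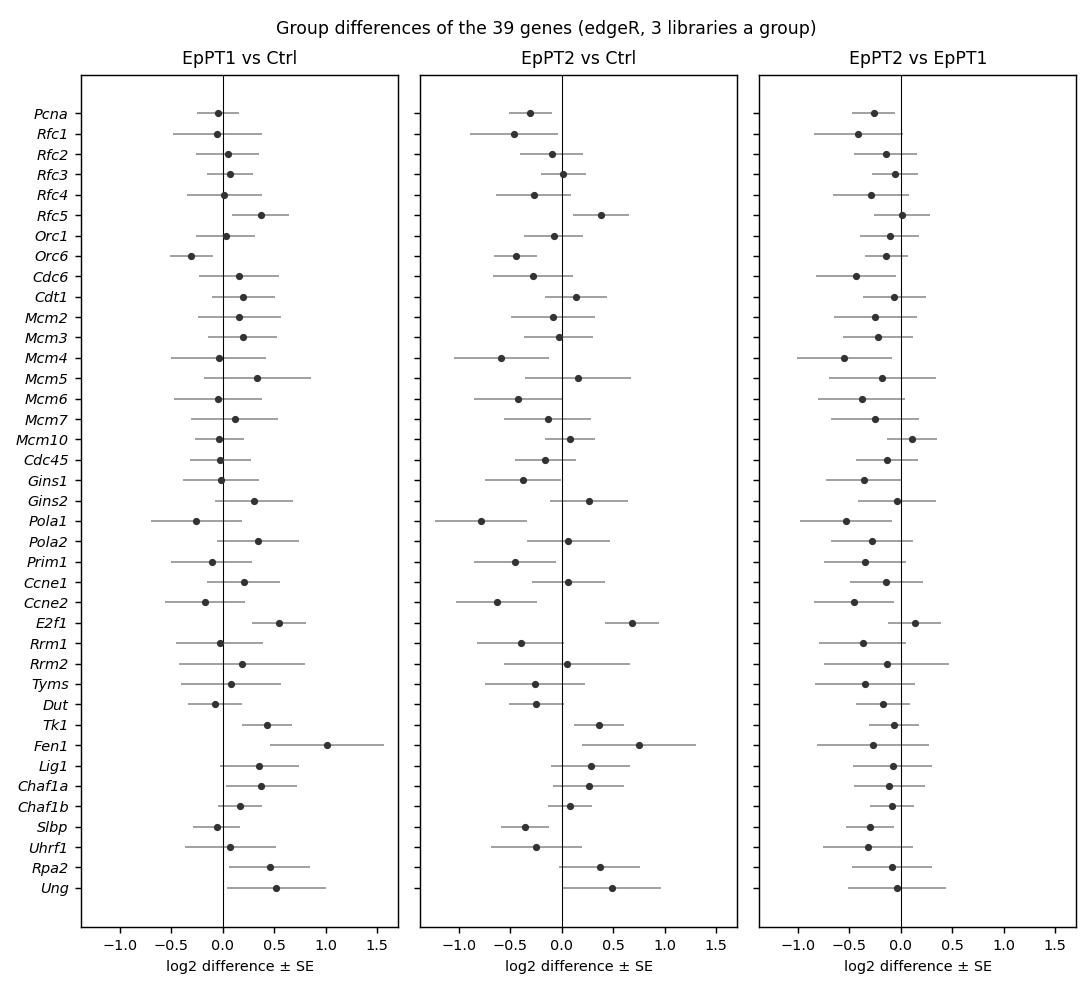
Log2 difference between group means with its standard error for the 39 genes in the 3 comparisons (edgeR, 3 libraries a group), with genes ordered by role. In EpPT1 against Ctrl 25 points lie right of 0, in EpPT2 against Ctrl 17, and in EpPT2 against EpPT1 3; no point is past the test.

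The differences against Ctrl ran along the GC content of the members. GC content of the longest transcript ranged from 36.3% for Ccne2 to 58.3% for E2f1, with a median of 49.2%. Across the 39 members it had a Pearson correlation of 0.65 with the log2 difference in EpPT1 against Ctrl and 0.72 in EpPT2 against Ctrl (Spearman 0.72 in both), and across 14458 tested genes one of 0.54 and 0.58. The members share all libraries, and genes are not independent replicates, so no p is given. With the GC trend taken out of every library, E2f1 differed by 0.08 (SE 0.23) in EpPT2 against Ctrl, with an edgeR p of 0.728. Orc6 then gave −0.17, Pcna −0.03, Slbp −0.02, Pola1 −0.36 and Ccne2 −0.16. Tk1, at 0.29, Rfc5, at 0.33, and Fen1, at 0.53, moved less. The GC slope was negative in every Ctrl and positive in every EpPT2 library, so the GC trend and the group cannot be told apart here. Removing the trend can therefore also remove a difference between the groups.

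**Figure D5:**
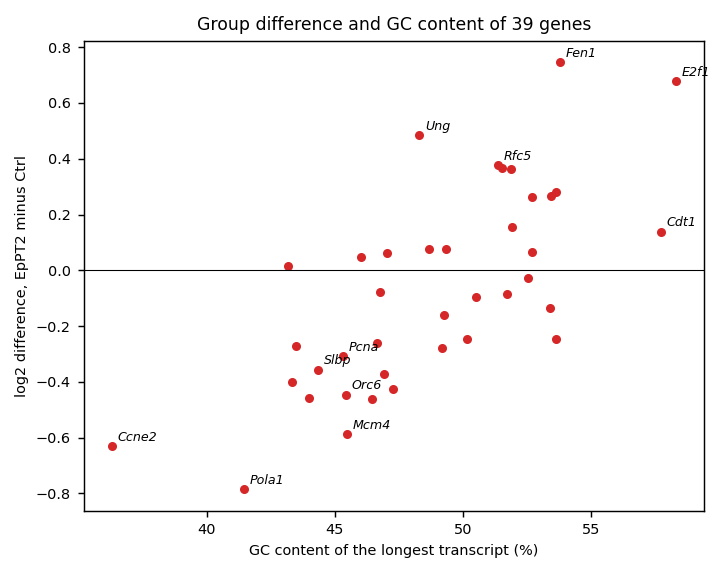
Log2 difference of EpPT2 minus Ctrl against the GC content of the longest transcript for the 39 genes. GC-poor genes such as Ccne2 and Pola1 lie below 0 and GC-rich ones such as E2f1 and Fen1 above it (Pearson 0.72, n = 39 genes).

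The mitochondrial share touched the same comparisons. With it as a covariate, 11 members were at an unadjusted p under 0.05 in EpPT2 against Ctrl and 0 passed the edgeR test. Higher were 9 of these (E2f1, Fen1, Lig1, Rfc5, Rpa2, Chaf1a, Ung, Gins2 and Mcm5), against 13.1% of all genes, and lower were 2 (Pola1 and Orc6), against 11.3%. E2f1 had the smallest p, with 0.69 (SE 0.24) and an edgeR adjusted p of 0.125. Within the 5 low-share libraries, where EpPT2 1 is alone in its group and is assumed to vary like the others, E2f1 differed by 0.46 (SE 0.40) and Orc6 by −0.23 (SE 0.35), and 0 members reached an unadjusted p under 0.05 in edgeR. Within the 4 high-share libraries E2f1 differed by 1.11 and Orc6 by −0.71. There edgeR called 19 members in EpPT1 against Ctrl (15 higher, 4 lower) and 23 in EpPT2 against Ctrl (18 higher, 5 lower), but also 41.5% and 43.2% of all genes. That fit sets Ctrl 3 and EpPT1 3 as lone libraries beside EpPT2 2 and EpPT2 3, which alone give the spread, so it compares those libraries and not the conditions.

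Other genes of the pathway were counted from lists of the same kind. Of 38 other replication genes, 20 were lower and 1 higher in all high-share libraries, the higher one being the small polymerase delta subunit Pold4, named after its values were seen. For all tested genes these shares were 18% lower and 16.5% higher. Other G1/S control genes gave 10 of 23 tested lower, CDK inhibitors 2 of 6, and G2/M and mitosis genes 19 of 30, with 1 higher. The last was Mki67, the proliferation antigen, with 781, 668 and 947 CPM in the Ctrl libraries, 853, 567 and 1117 in those of EpPT1, and 617, 1342 and 1363 in those of EpPT2. Ccnd1, the cyclin that starts the G1/S programme, had 437, 307 and 120.2 CPM in the Ctrl libraries, 257, 467 and 147 in those of EpPT1, and 416, 138 and 139 in those of EpPT2, lower in every high-share library. So was the cyclin A gene Ccna2, with 178, 115 and 62.4 CPM in the Ctrl libraries, 135, 123 and 64.0 in those of EpPT1, and 116, 71.1 and 68.7 in those of EpPT2. The CDK inhibitor gene Cdkn1a, by contrast, had 144, 218 and 226 CPM in the Ctrl libraries, 199, 280.2 and 173 in those of EpPT1, and 257, 189 and 169.7 in those of EpPT2 and overlapped between the share classes.

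In the group comparisons 0 genes of these lists passed edgeR's test. At an unadjusted p under 0.05 in EpPT2 against Ctrl stood 1 higher and 1 lower of the 38 other replication genes, 2 lower of the 23 G1/S control genes, 0 of the 6 CDK inhibitors and 4 lower of the 30 G2/M genes. Over all tested genes 6.88% were higher and 5.31% lower at that threshold. The pocket protein gene Rb1, whose product restrains E2F, had 24.2 ± 2.63 CPM for Ctrl, 14.8 ± 4.76 for EpPT1 and 12.8 ± 1.45 for EpPT2 (group mean ± SD, n = 3) and a log2 difference of −0.91 (SE 0.29) in EpPT2, with an edgeR adjusted p of 0.376, and of −0.70 (SE 0.28) in EpPT1. Its relative Rbl2 differed by −0.60 (SE 0.26) in EpPT2, with an edgeR adjusted p of 0.400. In both, EpPT2 was below Ctrl without overlap, as were 10.9% of all tested genes, and of the 23 G1/S control genes these 2 were the ones that did so. Rnaseh2c, a subunit of the enzyme that removes ribonucleotides from DNA, differed by 1.24 (SE 0.40), and the origin recognition subunit Orc4 by −0.85 (SE 0.29), each with an edgeR adjusted p of 0.376. The kinase inhibitor genes Cdkn1b and Cdkn2d gave −0.63 (SE 0.31) and 0.47 (SE 0.34). Of the mitotic genes, kinetochore Ndc80 gave −0.75 (SE 0.26) and checkpoint kinase Bub1 −0.74 (SE 0.27), while Mki67 gave 0.47 (SE 0.34).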

How the data were processed

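RNA-seq counts of 9 HC11 libraries, 3 each of Ctrl, EpPT1 and EpPT2 by their titles, were read from 1 table. The authors deposited whole-number counts per gene. Bowtie 0.12.2 and build mm8 were used, per the submitters' processing notes, yet the table's coordinates equal GENCODE release 21 on GRCm38 for 53499 of 54409 IDs (98.3%), so GRCm38 is used here. The counter and strand setting were not given in the sources used here. Members and lists were chosen with earlier results of these data known.

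In R 4.3.3, edgeR 4.0.16 fitted all 9 libraries by group (TMM, filterByExpr, quasi-likelihood test, two-sided, 6 residual degrees of freedom), with Benjamini-Hochberg adjustment over 14471 genes and a threshold of 0.05. The biological coefficient of variation was 39.3%. CPM are TMM-scaled. GC trends were removed as offsets from a spline with 5 degrees of freedom. The scripts were tested on simulated data.

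Values in every library are given for the top member per length and the member of smallest p in each of 9 roles, and for Pcna, Mcm2, Cdc6, Ccne1, Ccne2, E2f1, Rrm2, Slbp and Tk1. In each comparison the 4 members of smallest p in each direction are named, and of other lists the 2 genes of smallest p, Mki67, Ccnd1, Cdkn1a and Ccna2. Alternatives were DESeq2 1.42.0 and its size factors, limma-voom (limma 3.58.1), no filter, the 6 libraries compared, a replicate block, leaving out each library, the mitochondrial share as a covariate, low-share libraries alone and the GC correction. The fit to high-share libraries was chosen after seeing the data.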

Additional observations from a re-analysis of the deposited data

How the results depend on the processing

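No member passed the threshold in any comparison under any alternative except within the high-share libraries (added after the data were seen), where 19, 23 and 0 members and 6260, 6510 and 290 genes were called (EpPT1 against Ctrl, then EpPT2 against Ctrl, then EpPT2 against EpPT1), with 20, 28 and 1 members at an unadjusted p under 0.05. That fit has 1 residual degree of freedom, from EpPT2 2 and EpPT2 3. Of the differences between EpPT2 and EpPT1, E2f1 (−0.038), Mcm10 (−0.10), Rfc5 (−0.11), Slbp (0.062) and Pola1 (0.024) reversed there. With no filter on low counts edgeR called 32, 268 and 2 genes, with 2 members at an unadjusted p under 0.05 in EpPT2 against Ctrl. DESeq2 called 1 gene in EpPT1 against Ctrl and 53 in EpPT2 against Ctrl, 0 of them members. The cause of these moves was not tested.

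Members at an unadjusted p under 0.05 numbered 2 and 11 against Ctrl with the mitochondrial covariate, beside 1269 higher and 705 lower genes of 14471 for EpPT1 and 1902 and 1631 for EpPT2. In EpPT2 against Ctrl they numbered 0 within the low-share libraries, 0 after GC removal and 0 with the block and GC removal together. Dut in EpPT1 against Ctrl reversed to 0.018 within the low-share libraries, and after GC removal Pola1 and Ccne2 reversed to 0.0026 and 0.14, and E2f1 in EpPT2 against EpPT1 to −0.071.

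The replicate numbers are shared by the groups, and whether they pair the libraries is not clear. Correlations of same-numbered deviations ran from −0.636 to 0.732, and 2 of 9 were negative. For the libraries numbered 3, all of them high-share, they were 0.73, 0.63 and 0.64. The libraries numbered 1 were all low-share, so replicate number and mitochondrial share cannot be fully told apart. With the replicate block, 2 members in EpPT1 against Ctrl reached an unadjusted p under 0.05, both higher, beside 702 higher and 245 lower of 14471 genes. In EpPT2 against Ctrl 4 did, 1 higher and 3 lower, beside 1734 higher and 1322 lower genes. None was called, and Rfc5 in EpPT2 against EpPT1 reversed to −0.0018. With the block and GC removal, Pola1 gave 0.023, Ccne2 0.15, and in EpPT2 against EpPT1 E2f1 gave −0.073 and Rfc5 −0.0047.

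Leaving out each library in turn gave 0 to 3 members at an unadjusted p under 0.05 in EpPT1 against Ctrl (3 without Ctrl 2, 2 without EpPT1 1). In EpPT2 against Ctrl it gave 0 to 3 (0 without Ctrl 1 or EpPT2 2, 3 without Ctrl 2 or EpPT2 1, 2 without EpPT1 1), with 0 to 2 genes called in all (2 without EpPT1 1). In EpPT2 against EpPT1 it gave 0 to 1 (1 without EpPT2 1). The differences ranged from −0.55 to 0.057 for Pola1, −0.64 to 0.15 for Ccne2 and −0.19 to 0.11 for Dut in EpPT1 against Ctrl, with both Pola1 and Ccne2 above 0 without Ctrl 1 or EpPT1 3, and from −0.12 to 0.11 for Rfc5 in EpPT2 against EpPT1. Median differences of the members ranged from −0.07 to 0.34, −0.39 to 0.10 and −0.49 to −0.07.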

Other observations

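Genes for other steps of nucleotide supply, such as purine and pyrimidine synthesis, varied among the libraries much like the replication genes. Of 20 tested, 16 were lower in every high-share library and 19 were lower in the high-share libraries of all 3 groups, against 18% and 35.1% of all tested genes. Their median log2 differences between high-share and low-share libraries were −0.99 within Ctrl, −0.99 within EpPT1 and −1.02 within EpPT2. As for the members, each rests on a single library on 1 side. Paics, a bifunctional enzyme of purine synthesis, had 294, 263 and 197 CPM in the Ctrl libraries, 259.6, 216 and 112 in those of EpPT1, and 211, 127 and 129 in those of EpPT2. Rrm2b, the reductase subunit induced by p53, had 58.1, 48.4 and 36.3 CPM in the Ctrl libraries, 51.7, 32.2 and 17.9 in those of EpPT1, and 34.7, 20.5 and 20.6 in those of EpPT2. In EpPT2 against Ctrl these genes differed by −0.69 (SE 0.34) and −0.91 (SE 0.39), with edgeR adjusted p of 0.426 and 0.394, and 0 of the 20 passed the test in any comparison.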
